A study of Caenorhabditis elegans with 15 samples.

Results

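The proteasome subunit genes are the 33 rows of the expression table whose gene name is pas, pbs, rpn or rpt followed by a number, out of 46906 genes in the table. Of these, 14 encode the core particle (7 pas and 7 pbs genes) and 19 the regulatory particle (6 rpt and 13 rpn genes). They were chosen by name and not by a measured value, though with earlier results of these data known. RNA came from whole wild-type N2 C. elegans on day 12 of adulthood, and each of the 3 groups had 5 libraries. The control group received DMSO at 0.05%. The C. chinensis group received a seed extract of this plant at 30 µg/mL and the E. ulmoides group a bark extract at 30 µg/mL, both dissolved in DMSO and given from the L4 stage on. All worms, controls included, were kept at 22 °C with 100 µM FUdR, which stops the production of progeny, and 2 mg/mL carbenicillin, and a tube held roughly 3000 to 4000 animals.

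The proteasome is the protease that degrades most ubiquitin-tagged proteins of a eukaryotic cell. Its barrel-shaped core particle is built from rings of alpha subunits (pas), which gate the entry, and rings of beta subunits (pbs), of which pbs-1, pbs-2 and pbs-5 carry the cutting sites. The regulatory particle sits on the barrel. Its ATPases (rpt) unfold the substrate, and its non-ATPase subunits (rpn) bind ubiquitin chains, remove them and hold the complex together. In C. elegans the transcription factor SKN-1A, a product of skn-1, raises the transcription of subunit genes when the proteasome is impaired, after processing by the protease DDI-1 and the glycanase PNG-1. Overexpression of the lid gene rpn-6.1 is known to raise proteasome activity and lifespan in this species.

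Expression was deposited as FPKM, which puts the fragments counted for each gene relative to gene length and library total. The fragment totals behind the values ranged from 37920765 to 82839505 in the DMSO group, from 37963794 to 81833288 in the C. chinensis group and from 39567765 to 87238546 in the E. ulmoides group. A subunit gene had between 1767 and 57536 fragments in a library, no subunit gene was at 0 in any library, and all 33 passed the filter that left 13743 genes for testing (FPKM 1 or more in 5 or more libraries). Fold changes are differences of log2(scaled FPKM + 0.5), where the libraries were scaled by a trimmed mean of M values. The scaling multiplied the values by 0.97 to 1.06 in the DMSO group, by 0.861 to 0.942 in the C. chinensis group and by 1.10 to 1.15 in the E. ulmoides group, so fitted changes and changes of the deposited FPKM differ. The 5 libraries of a group are labelled as biological replicates, without a statement of which steps were kept separate, so p-values measure the spread between these libraries.

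In the DMSO group the deposited FPKM of most subunit genes lay within a narrow range. The 14 core genes ranged from 194.9 (pbs-3) to 456.6 (pas-3), with a median of 232.6. The regulatory particle genes ranged from 40.4 (rpn-6.2) to 274.8 (rpt-2), with a median of 210.7. Core genes led the order. The highest level was that of pas-3 (456.6 ± 27.6, SD, n = 5), followed by pas-5 (372.4 ± 22.3, n = 5) and pbs-1 (320.7 ± 18.2, n = 5), and the library ranges of these genes did not overlap with each other or with that of the next gene, rpt-2 (274.8 ± 5.02, n = 5). At the other end stood rpn-1, rpn-6.1 and rpn-6.2, with 133.0 ± 4.87, 126.3 ± 7.52 and 40.4 ± 2.89 (n = 5 each). Of the 32 neighbouring pairs in this order, only 7 had library ranges that did not overlap, so most neighbours could not be ranked. Within the DMSO group the SD was 1.39% to 7.15% of the mean (median 3.67%), beside a median of 4.63% for the 1386 other genes with a mean FPKM of at least 100. In the C. chinensis group the median over the 33 genes was 5.18%, beside 7.72% for the same other genes. In the E. ulmoides group it was 3.59%, beside 5.57%.

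**Figure D1:**
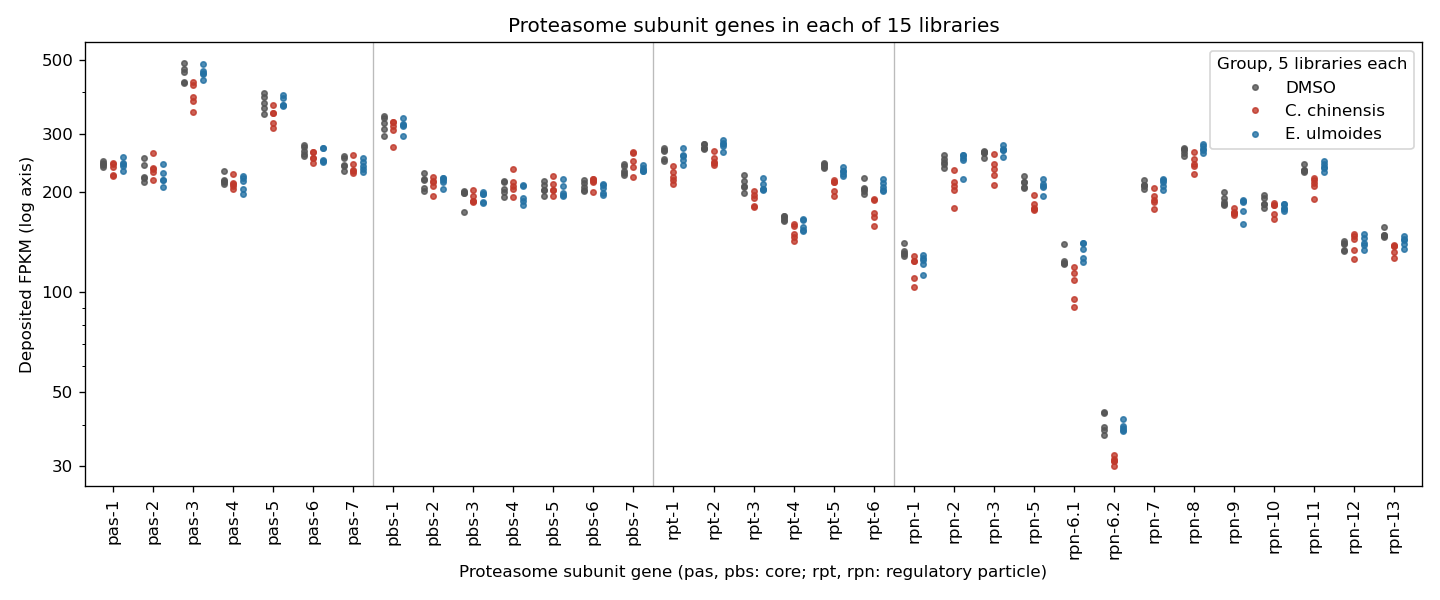
Deposited FPKM (log axis) of the 33 proteasome subunit genes in each library, with 5 points per group; vertical lines separate pas, pbs, rpt and rpn genes. Every gene except rpn-6.2, at 30.0 to 43.6, lay above 90, and the C. chinensis points sit below the DMSO points for most rpt and rpn genes, as for rpn-6.2, while they overlap for every pas and pbs gene.

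With C. chinensis, RNA of the regulatory particle was lower than with DMSO, and RNA of the core was lower by a smaller amount, which for 5 core genes turned above 0 without further scaling. Of the 33 subunit genes, 29 were lower (adjusted p under 0.05, limma with Benjamini-Hochberg adjustment over all genes tested) and 0 were higher. With voom on recovered fragments 28 were lower and 0 higher. All 33 fitted changes were below 0, beside 7680 of the 13743 genes tested and 1169 of the 1418 with a mean FPKM of at least 100. An unadjusted p under 0.05 was reached by 30 subunit genes, beside 9628 and 1226 genes in the same order, in either direction. The 29 comprised 11 of 14 core genes and 18 of 19 regulatory particle genes, and those that did not pass were pas-2, pbs-4, pbs-7 and rpn-12. The background in this comparison was 37.2% of all 13743 genes lower and 30.2% higher. The subunit genes are, however, well expressed, and among the 1418 genes with a mean FPKM of at least 100, which include all of them but rpn-6.2, 70.9% were lower. The median log2 fold change was −0.32 over the regulatory particle genes and −0.19 over the core genes, beside −0.29 over the genes with a mean FPKM of at least 100 and −0.09 over all genes tested. The median of the regulatory particle was thus close to that of well-expressed genes, and that of the core was nearer to 0. No subunit gene changed by more than 1.5 times in either direction at that adjusted p, which 3.49% of all genes tested did as lower and 16.9% as higher.

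These counts rest on how the libraries are scaled. Without further scaling of the deposited FPKM, 19 subunit genes were lower, 17 of the regulatory particle and 2 of the core (pas-3 and pas-5), and pas-2, pbs-4, pbs-5, pbs-6, pbs-7 and rpn-12 had changes above 0. Of all genes tested, 22.9% were then lower, and their median change was 0.06 in place of −0.09. The share among genes with a mean FPKM of at least 100 is not given for this setting, so the part of expression level in these counts was not tested. Across all 24 alternatives run, 18 subunit genes kept an adjusted p under 0.05 with the same direction, namely pas-3, pas-5, the 6 rpt genes and 10 of the rpn genes. How many of all genes tested did so was not counted.

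**Figure D2:**
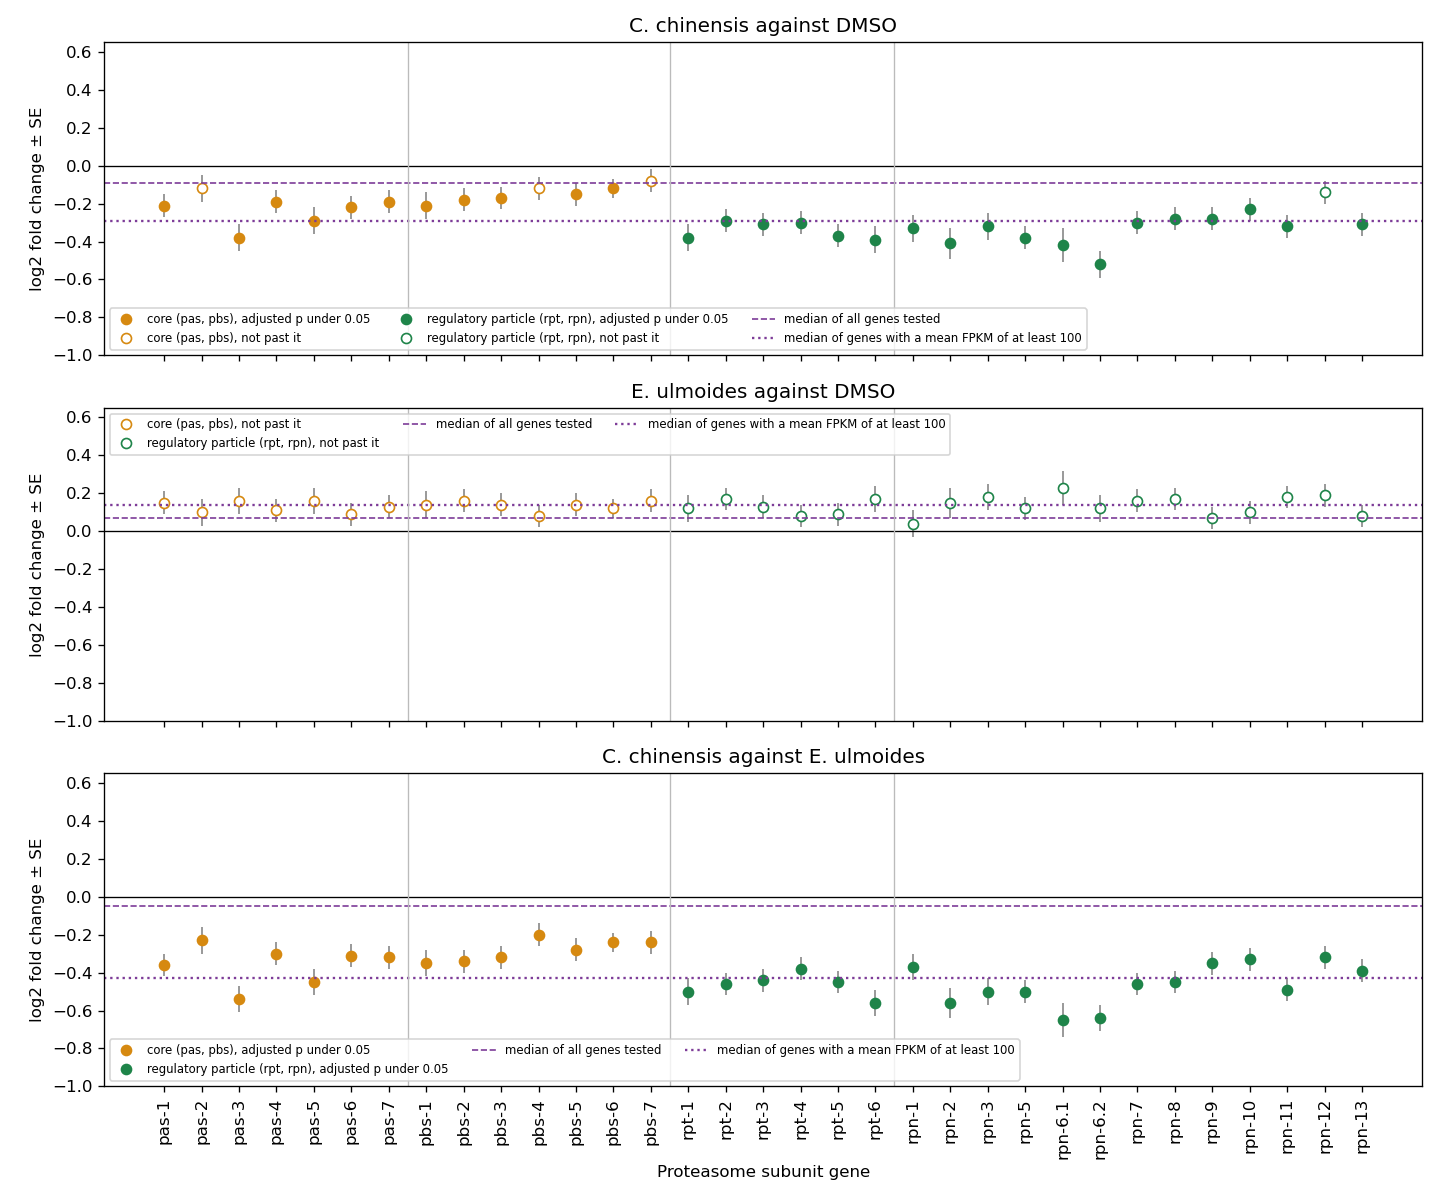
Log2 fold change with its standard error for each of the 33 subunit genes in the 3 comparisons, on the scaled values; filled points passed an adjusted p under 0.05, the dashed line is the median of all genes tested and the dotted line that of genes with a mean FPKM of at least 100. Against DMSO the C. chinensis points run from −0.52 (rpn-6.2) to −0.08 (pbs-7) and the E. ulmoides points from 0.04 (rpn-1) to 0.23 (rpn-6.1); without further scaling 6 of the former turned above 0 and 21 of the latter below 0.

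The 2 genes that encode RPN-6, a lid subunit that clamps the regulatory particle to the core, had the largest falls. For rpn-6.2 (chromosome III, 8999817 to 9001999, minus strand, WBcel235) the deposited FPKM was 43.6, 37.2, 38.6, 39.2 and 43.2 in the DMSO libraries, 31.6, 31.0, 31.1, 32.5 and 30.0 in the C. chinensis libraries, and 38.7, 38.3, 41.5, 39.0 and 39.7 in the E. ulmoides libraries. Every C. chinensis library lay below every other library. The log2 fold change against DMSO was −0.52 ± 0.07 (SE; adjusted p = 5.7e-06, limma), and the exact two-sided permutation test gave p = 0.0079, the smallest that 5 against 5 libraries allow. Its change ranged from −0.58 to −0.36 over the alternatives.

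For rpn-6.1 (chromosome III, 6959110 to 6962001, minus strand) the FPKM was 139.7, 124.6, 122.0, 123.0 and 122.5 with DMSO, 109.0, 119.2, 90.5, 114.8 and 95.8 with C. chinensis, and 126.6, 141.1, 135.5, 123.3 and 140.9 in the E. ulmoides libraries. The C. chinensis libraries were again all below the others, and they spread more, with replicates 3 and 5 lowest. The log2 fold change with C. chinensis was −0.42 ± 0.09 (adjusted p = 0.00045, limma). The summed FPKM of both RPN-6 genes was 166.7 ± 9.46 with DMSO, 137.1 ± 12.9 with C. chinensis and 172.9 ± 8.51 with E. ulmoides (SD, n = 5 each). The share of rpn-6.2 in that sum was 24.2%, 22.9% and 22.8%, with library ranges that overlapped between the groups. How fragments that match both genes were counted is not given in the sources used here.

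Among the other regulatory particle genes the scaffold gene rpn-2, which links the base to the lid, fell by 0.41 ± 0.08 on the log2 scale (adjusted p = 0.00028, limma). Its FPKM was 246.7, 237.6, 252.7, 243.2 and 259.7 with DMSO and 209.4, 215.5, 180.1, 233.4 and 203.7 with C. chinensis, without overlap. The 6 ATPase genes moved together, all lower in the fit and in every alternative, with log2 fold changes from −0.39 (rpt-6) to −0.29 (rpt-2). For rpt-6, the FPKM was 221.7, 202.5, 204.5, 197.5 and 206.7 with DMSO and 173.2, 189.5, 158.1, 191.7 and 168.5 with C. chinensis. Every C. chinensis value of rpt-6 was below the lowest DMSO value. In the deposited FPKM, 12 of the 19 regulatory particle genes and 0 of the 14 core genes lay lower without overlap, beside 15.4% of all genes tested and 36.7% of those with a mean FPKM of at least 100, and of the 6 rpt genes rpt-3 was the exception. For rpt-5 the FPKM was 241.0 ± 3.35 with DMSO and 209.1 ± 9.98 with C. chinensis (SD, n = 5), and its log2 fold change of −0.37 ± 0.06 had the smallest adjusted p of the ATPases (3.4e-05, limma).

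The lid deubiquitinase rpn-11, which cuts the ubiquitin chain off a substrate, had an FPKM of 243.1, 234.4, 230.2, 232.4 and 234.3 with DMSO and of 213.1, 217.7, 190.7, 221.6 and 209.5 with C. chinensis. These ranges did not overlap, and the log2 fold change was −0.32 ± 0.06 (adjusted p = 0.00019, limma). Its partner in the lid, rpn-8, changed by −0.28 ± 0.06 (adjusted p = 0.00069). The fitted changes of the ubiquitin receptors ran from −0.33 to −0.23, and no test compared these genes with each other. For rpn-13 the FPKM was 146.7, 148.8, 148.5, 148.0 and 157.3 with DMSO against 137.6, 139.2, 127.3, 138.4 and 131.9 with C. chinensis, without overlap, and the log2 fold change was −0.31 ± 0.06 (adjusted p = 0.00019). For rpn-1 it was −0.33 ± 0.07 (adjusted p = 0.00073), with deposited ranges that touched, since a C. chinensis library at 128.8 lay just above the lowest DMSO library at 128.7. For rpn-10 the groups overlapped in the deposited FPKM (179.4 to 197.1 with DMSO, 166.9 to 185.6 with C. chinensis), and the log2 fold change was −0.23 ± 0.06 (adjusted p = 0.0018), which was lost without further scaling (−0.07).

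The lid gene rpn-12 had the smallest change of the regulatory particle genes in C. chinensis against DMSO. Between the extracts it did not stand apart, at −0.32 beside −0.33 for rpn-10 and −0.35 for rpn-9. The FPKM of rpn-12 was 140.3, 142.7, 133.7, 133.9 and 140.5 with DMSO and 133.9, 144.8, 126.3, 147.7 and 150.2 with C. chinensis. The C. chinensis libraries lay on both sides of the DMSO range, and the log2 fold change of −0.14 ± 0.06 did not pass (adjusted p = 0.065, limma) and was 0.02 without further scaling. At 871 nucleotides rpn-12 is also the shortest regulatory particle gene, within the 801 to 1059 of the core genes, whereas the other regulatory particle genes measured 1103 to 3176. Over the 33 genes the log2 fold change and log2 length were correlated (Pearson r = −0.69), within the 19 regulatory particle genes r was −0.47, or −0.28 without rpn-12, and within the 14 core genes −0.13. Over all 13743 genes tested it was −0.07. These are descriptions across genes of the same libraries. A correction of each library for length left the difference between core and regulatory particle at 0.13. It was fitted over all genes tested, so it does not decide whether length has a part in this difference. Apart from rpn-12 the particles do not overlap in length, so gene length and particle cannot be told apart here.

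In the core, the changes were smaller. For the catalytic genes the deposited FPKM overlapped between groups. The FPKM of pbs-5, the gene of the chymotrypsin-like subunit, was 202.8, 203.3, 195.6, 211.0 and 216.5 with DMSO, 194.9, 224.6, 211.7, 203.6 and 203.7 with C. chinensis and 197.1, 199.8, 208.7, 218.8 and 195.7 in the E. ulmoides libraries. The fitted change with C. chinensis was −0.15 ± 0.06 (adjusted p = 0.039, limma), while the exact permutation test gave p = 0.056 and the change was 0.01 without further scaling. For pbs-2, the trypsin-like subunit, the fitted change was −0.18 ± 0.06 (adjusted p = 0.011) and for pbs-1, the caspase-like subunit, −0.21 ± 0.07 (adjusted p = 0.0099). The exact permutation test gave p = 0.032 for pbs-2 and p = 0.0079 for pbs-1, whose scaled values did not overlap. Without further scaling the changes of pbs-2 and pbs-1 came to −0.02 and −0.05, neither past the threshold. In the deposited FPKM, pbs-2 measured 229.2, 219.1, 206.5, 201.6 and 217.6 with DMSO and 209.8, 222.2, 194.5, 214.6 and 215.8 with C. chinensis. For pbs-1 the values were 338.5, 335.9, 309.9, 295.2 and 323.7 with DMSO and 309.1, 326.0, 273.3, 317.8 and 325.4 with C. chinensis. In both genes replicate 3 was the lowest C. chinensis library.

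The core genes nearest to 0 were pbs-7 (−0.08 ± 0.06, adjusted p = 0.22, limma), pbs-6 (−0.12 ± 0.05, adjusted p = 0.047), pas-2 (−0.12 ± 0.07, adjusted p = 0.13) and pbs-4 (−0.12 ± 0.06, adjusted p = 0.10), and all 4 were above 0 without further scaling. For pbs-7 the FPKM was 229.5, 243.0, 226.0, 231.9 and 240.8 with DMSO and 223.2, 238.6, 264.8, 263.1 and 248.6 with C. chinensis. The call for pbs-6 held in only 6 of the 24 alternatives and that for pbs-5 in 13. At the other end of the core stood pas-3 and pas-5, the most highly expressed subunit genes. For pas-3 (chromosome I, 5105110 to 5106048, minus strand) the FPKM was 461.6, 429.6, 428.0, 471.8 and 491.8 with DMSO, 348.5, 387.1, 429.9, 422.3 and 377.1 with C. chinensis and 486.1, 434.6, 455.6, 464.0 and 458.1 in the E. ulmoides libraries. Only C. chinensis replicate 3 reached the DMSO range. The log2 fold change of pas-3 with C. chinensis was −0.38 ± 0.07 (adjusted p = 0.00022) and that of pas-5 −0.29 ± 0.07 (adjusted p = 0.0008), and both passed in all 24 alternatives. Across the 14 core genes the change and the log2 level had r = −0.83, which became −0.41 over the 12 left without these 2 genes. Without pbs-1 as well it was −0.28. Over all 13743 genes tested the same r was −0.34, and over the 19 regulatory particle genes 0.41.

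Because the core and regulatory particle genes of a library share its scaling, their difference within a library does not depend on that step. The mean log2 FPKM of the regulatory particle genes minus that of the core genes was −0.418, −0.458, −0.402, −0.453 and −0.46 in the DMSO libraries, −0.521, −0.567, −0.695, −0.52 and −0.6 in the C. chinensis libraries and −0.494, −0.398, −0.422, −0.476 and −0.391 in the E. ulmoides libraries. Every C. chinensis library lay below every DMSO and E. ulmoides library, and the latter groups overlapped. As a ratio of geometric means, the regulatory particle stood at 0.738 ± 0.0137 of the core with DMSO, 0.67 ± 0.0329 with C. chinensis and 0.739 ± 0.0236 with E. ulmoides (SD, n = 5 each). The geometric mean FPKM of the core was 250.2 ± 7.47, 245.2 ± 7.86 and 247.1 ± 7.30 in the same order, with overlapping ranges, and that of the regulatory particle 184.7 ± 3.66, 164.1 ± 8.06 and 182.6 ± 5.52. No p-value is given for these means, since the genes were grouped by name with earlier results known.

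The median change of the core minus that of the regulatory particle was 0.13 in C. chinensis against DMSO, 0.01 in E. ulmoides against DMSO and 0.14 in C. chinensis against E. ulmoides. With each library left out in turn, the value for C. chinensis against DMSO ranged from 0.12 to 0.15. Measured against the core mean of the same library, 10 of the 19 regulatory particle genes were lower in every C. chinensis library than in every DMSO library, against 11% of all genes tested and 30.5% of those with a mean FPKM of at least 100. They were the 6 rpt genes, rpn-2, rpn-5, rpn-6.2 and rpn-7. The largest differences were those of rpn-6.2 (−0.34), rpn-2 (−0.23) and rpn-6.1 (−0.23), and rpn-12 (0.05) was the only regulatory particle gene above 0. In E. ulmoides against DMSO the same measure separated 0 of the 19 genes, where 3.33% of all genes tested were lower and 1.05% higher in every library.

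**Figure D3:**
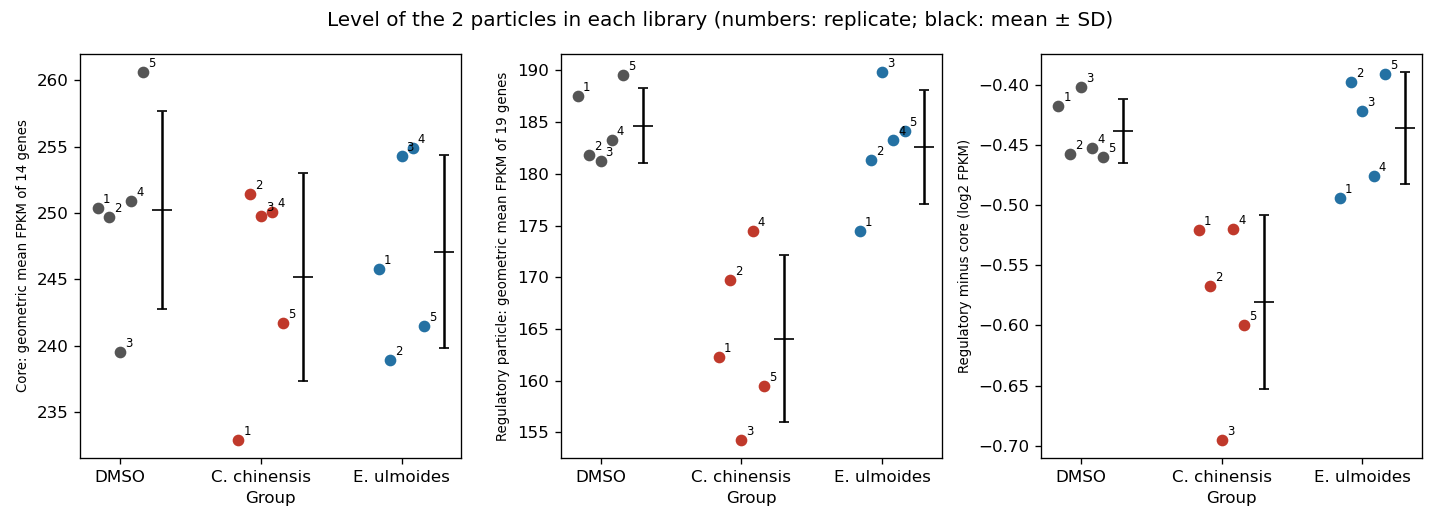
Geometric mean FPKM of the 14 core genes (left) and the 19 regulatory particle genes (middle), and the regulatory particle minus the core in log2 FPKM (right), for each library, with replicate numbers and the mean ± SD of each group in black. The core ranges overlap in all groups, while the right panel puts the C. chinensis libraries at −0.695 to −0.52 and the DMSO libraries at −0.46 to −0.402.

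**Figure D4:**
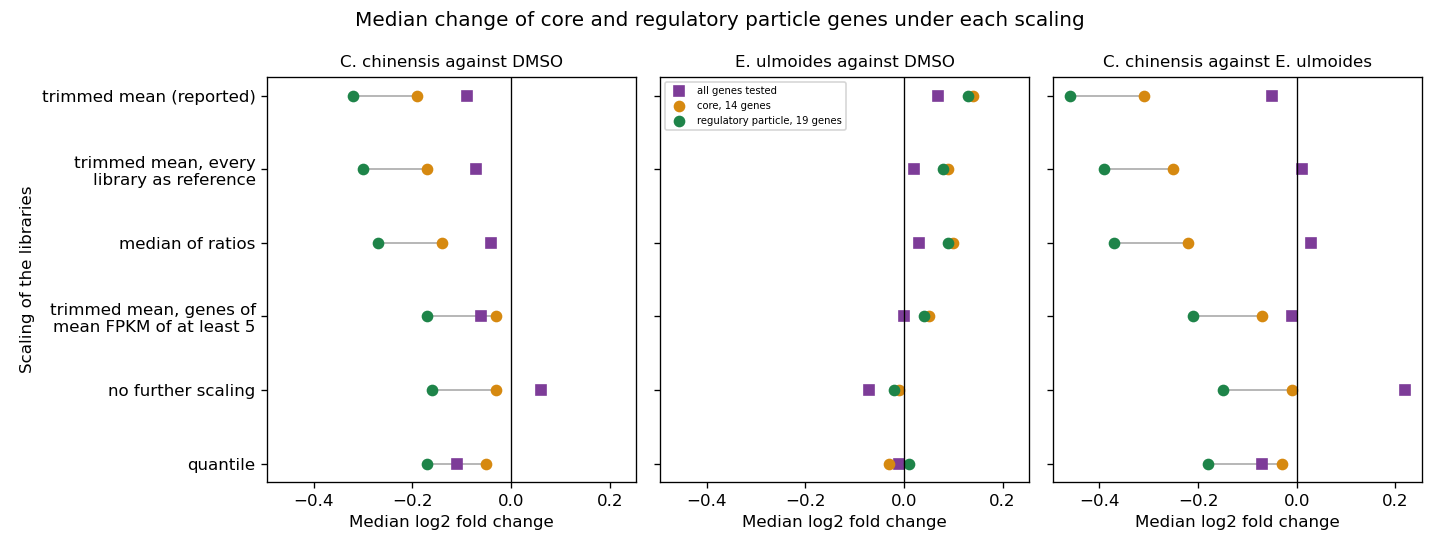
Median log2 fold change of the core genes, the regulatory particle genes and all genes tested in each comparison, under the reported scaling and 5 others (the fourth also changes the filter). All medians shift with the scaling, and the core turns to −0.03 in C. chinensis against DMSO without further scaling, while the gap between core and regulatory particle stays at 0.12 to 0.13 in that comparison.

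C. chinensis replicate 3 showed the widest gap between the particles (−0.695). It held the lowest FPKM of its group for 12 of the 19 regulatory particle genes, rpn-1, rpn-2, rpn-3 and rpn-6.1 among them, and the highest for 6 of the 14 core genes, such as pas-2 and pbs-4, and it was the reference of the trimmed-mean scaling. Without it 29 subunit genes were lower, and with every library used in turn as the reference 27 were. A whole worm mixes tissues, so fewer cells of a type and less RNA per cell cannot be told apart here. Of the 12 germ cell marker genes, all 12 were lower with C. chinensis (median −0.47), and their summed FPKM was 1510 to 1865, against 2112 to 2172 with DMSO and 1872 to 2193 with E. ulmoides. The lowest sums of all were those of C. chinensis replicates 3 (1510) and 5 (1573), the libraries with the widest gaps between regulatory particle and core. Of the 10 oocyte and maternal RNA genes, 8 were lower and 1 higher (median −0.41), though their summed FPKM was higher (3103 to 3474 against 2833 to 3084). All 8 body wall muscle genes (median 1.00), all 7 intestine genes measured (0.74) and all 8 neuron genes (0.44) were higher, as were the 3 of 8 hypodermis genes that could be tested, with 0 markers of any list at 0 throughout a group. The part of tissue composition in the changes of the subunit genes was not tested.

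With E. ulmoides, no change of a subunit gene was detected. All 33 fitted changes were above 0, from 0.04 (rpn-1) to 0.23 (rpn-6.1), with medians of 0.14 over the core and 0.13 over the regulatory particle, beside 0.07 over all genes tested and 0.14 over those with a mean FPKM of at least 100, but without further scaling 21 of the 33 were below 0. At an adjusted p under 0.05 the count was 0 higher and 0 lower, by limma and by voom on recovered fragments. An unadjusted p under 0.05 was reached by 17, beside 3205 of all 13743 genes tested and 719 of the 1418 with a mean FPKM of at least 100. Of those 1418 genes, 1324 had a change above 0. When the 2 groups were fitted alone, 8 subunit genes passed as higher, beside 1293 of all 13743. The background was 4.68% of all genes tested higher and 0.335% lower, and 16.1% of those with a mean FPKM of at least 100 were higher. The changes furthest from 0 were those of rpn-6.1 (0.23 ± 0.09, adjusted p = 0.13, limma), rpn-12 (0.19 ± 0.06, adjusted p = 0.09) and rpn-11 (0.18 ± 0.06, adjusted p = 0.091). The nearest to 0 were rpn-1 (0.04 ± 0.07), rpn-9 (0.07 ± 0.06) and rpn-13 (0.08 ± 0.06). In the deposited FPKM the groups overlapped for all 33 genes, while 6.58% of all genes tested were lower and 1.13% higher without overlap.

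Between the extracts, all 33 subunit genes were lower in the C. chinensis group (adjusted p under 0.05, limma), against 37.8% of all genes tested and 79.4% of those with a mean FPKM of at least 100. The median log2 fold change was −0.46 over the regulatory particle and −0.31 over the core, beside −0.43 over the genes with a mean FPKM of at least 100 and −0.05 over all. This is also the test of whether the changes against DMSO differed between the extracts, since the DMSO group drops out of it. Without further scaling 15 of the 33 were lower, 13 of the regulatory particle and 2 of the core, against 18.5% of all genes tested. The share among those with a mean FPKM of at least 100 is not given for this setting. The median of all genes tested was then 0.22, and 6 core genes were above 0. The genes rpn-6.1 (−0.65 ± 0.09, adjusted p = 5.9e-06) and rpn-6.2 (−0.64 ± 0.07, adjusted p = 7.5e-07) also fell by more than 1.5 times, as did 9.56% of all genes tested and 22.8% of those with a mean FPKM of at least 100. That call was lost under every scaling other than the reported one, and without C. chinensis replicate 3 or replicate 5. The next in order were rpn-2 (−0.56 ± 0.08), rpt-6 (−0.56 ± 0.07) and pas-3 (−0.54 ± 0.07), and the smallest changes those of pbs-4 (−0.20 ± 0.06), pas-2 (−0.23 ± 0.07) and pbs-7 (−0.24 ± 0.06).

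With C. chinensis, most genes that act on or with the proteasome were lower. Their counts are to be read beside 37.2% of all genes tested and 70.9% of those with a mean FPKM of at least 100. Many lay below that level, such as png-1 (46.4), psmd-9 (58.5) and elt-2 (9.05). Without further scaling 22.9% of all genes tested were lower, and the share of those at or above that level is not given. The gene ddi-1 is in both of the lists that follow. Of 10 genes of regulation and assembly measured, 8 were lower with C. chinensis and 1 higher (median −0.28), and without further scaling 3 were lower and 1 higher. The factor gene skn-1, whose SKN-1A product drives subunit genes, changed by −0.31 ± 0.08 (adjusted p = 0.0022, limma), its protease ddi-1 by −0.40 ± 0.06 (adjusted p = 2.8e-05) and its glycanase png-1 by −0.22 ± 0.05 (adjusted p = 0.0011). Without further scaling the change of ddi-1 was −0.24 and still passed, while those of skn-1 (−0.15) and png-1 (−0.07) did not. The values are for the whole skn-1 gene and do not separate its isoforms. The gene that rose was elt-2 (0.42 ± 0.09, adjusted p = 0.00036), a transcription factor of the intestine that is also among the intestine markers. Of 12 partner genes, 8 were lower and 1 higher (median −0.21), and without further scaling 3 were lower and 1 higher. The lid subunit gene dss-1, whose name falls outside the naming rule, changed by −0.18 ± 0.06 (adjusted p = 0.012), which came to −0.02 without further scaling, and the proteasome-bound deubiquitinase usp-14 by −0.38 ± 0.06 (adjusted p = 4.5e-05). The exception was aip-1, an arsenite-inducible gene whose product binds the proteasome, which rose by 0.15 ± 0.06 (adjusted p = 0.032). With E. ulmoides, dss-1 (0.28 ± 0.06, adjusted p = 0.017) and psme-3, which encodes an alternative activator of the core (0.31 ± 0.05, adjusted p = 0.0058), were higher, though 0 of the 12 partner genes passed without further scaling, and skn-1 (−0.05), ddi-1 (0.11), png-1 (0.13) and aip-1 (0.17) did not pass.

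The lid shares its architecture with the COP9 signalosome and the translation initiation factor eIF3. With C. chinensis, 5 of 6 COP9 genes were lower (median −0.32) and 9 of 12 eIF3 genes (median −0.30), close to the −0.32 of the 9 lid genes, of which 8 were lower. The COP9 gene csn-5, which encodes the counterpart of rpn-11, fell by 0.52 ± 0.07 on the log2 scale (adjusted p = 4.9e-06). Complexes with other roles had like values, with 67 of 76 cytosolic ribosomal protein genes lower (median −0.31) and 7 of 8 genes of the CCT chaperonin (median −0.31). Without further scaling 4 of 6 COP9, 6 of 12 eIF3, 32 of 76 ribosomal protein and 6 of 8 CCT genes were lower, beside 22.9% of all genes tested. The share among genes with a mean FPKM of at least 100 is not given for this setting. The core, at −0.19, was nearer to 0 than these medians.

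**Figure D5:**
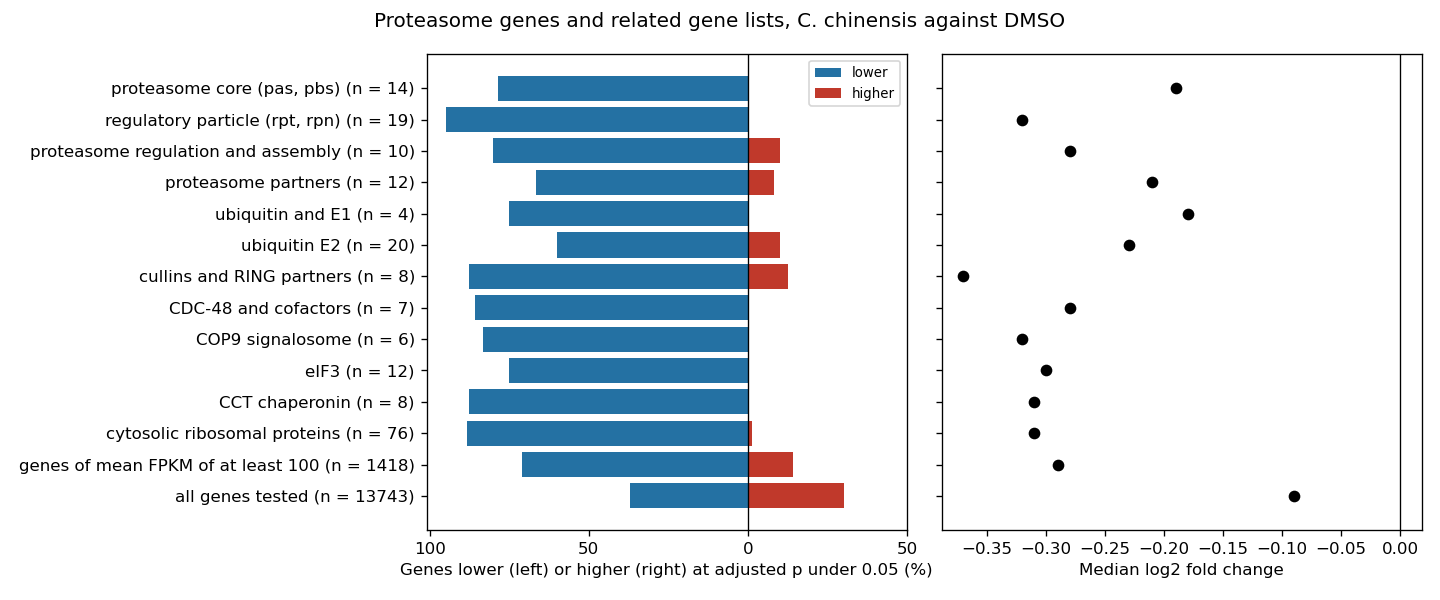
Share of genes lower or higher at an adjusted p under 0.05 (left) and median log2 fold change (right) in C. chinensis against DMSO for the 2 proteasome particles, related gene lists, genes with a mean FPKM of at least 100 and all genes tested. The regulatory particle (18 of 19 lower, median −0.32) sits among the other complexes, and the core (11 of 14 lower, median −0.19) lies nearer to 0. Without further scaling 2 of the 14 core genes were lower, beside 22.9% of all genes tested. The share among genes with a mean FPKM of at least 100 is not given for that setting.

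On the chromosomes, 10 of the 33 genes lie on I, 7 on II, 8 on III, 3 on IV and 5 on V, and 0 on X, which holds 12.7% of the genes tested. Of the 14 core genes 7 are on I and 1 on III, and of the 19 regulatory particle genes 3 are on I and 7 on III, while I and III hold 17.3% and 16.5% of the genes tested. The library kit is not described as keeping strand, so reads of overlapping genes could not be told apart. Exon bases were shared with another gene in 11 of the 33, and over 5% of the exon length in 5 of them, with 20.7% of rpn-7 (opposite nemt-1), 10.6% of rpn-9, 9.11% of pbs-4, 7.97% of pbs-7 and 7.05% of rpt-4. Of the genes named above with large changes, rpn-6.1, rpn-6.2, rpn-2 and pas-3 shared none, and rpt-6 shared 1.85% (opposite glrx-5).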

How the data were processed

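RNA-seq of 15 libraries of whole worms was used, grouped by the deposited labels. The authors deposited FPKM, made by aligning paired-end reads to WBcel235 with HISAT2 (version not given) and dividing fragments per gene by gene length and library total. The counting tool is not given in the sources used here, and the authors tested with edgeR through DEBrowser. Fragment numbers were recovered from the FPKM steps of the 21-nucleotide piRNA genes and came out whole, within 0.0001, for all 26686 genes above 0. Genes with FPKM 1 or more in 5 or more libraries were scaled by the unweighted form of TMM (a trimmed mean of M values, dropping 30% of M and 5% of A from either tail). The log2(scaled FPKM + 0.5) was fitted with limma 3.58.1 in R 4.3.3 (lmFit, eBayes with trend), with the 3 groups in a single fit, two-sided, and Benjamini-Hochberg adjustment over all genes kept. Exact two-sided permutation tests compared 5 libraries with 5. Exon overlaps came from Ensembl release 115. The members, lists and tests were chosen with earlier results of these data known. Named in full were the 3 highest and 3 lowest genes in each comparison, the catalytic beta genes, rpn-6.1, rpn-6.2, rpn-11, the ubiquitin receptors, up to 3 genes of smallest p of each related list, and skn-1, ddi-1, png-1, aip-1 and dss-1. Others, such as rpn-12, pas-3, rpt-5 and rpt-6, were singled out after their values were seen. Alternatives covered scaling, pseudocount, filter, groups in the fit, replicate blocks, voom and each library left out. The use of every library as scaling reference and a length correction were added after seeing the data. The pipeline was tested on simulated data. Of 12 listed genes of regulation and assembly, 10 were matched by name or identifier. A planned search for promoter motifs was not run, since no promoter sequences were used here.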

Additional observations from a re-analysis of the deposited data

Results flagged for a closer look

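Of 99 sets of 5 libraries (33 genes in 3 groups), 3 had a library set apart from the other 4 by a gap above the 95% critical value of Dixon's test, where chance would flag about 1 in 20. All were DMSO replicate 5, on the high side. In scaled FPKM that library held 294.4 for pas-6, against 256.6 to 266.0 in the other DMSO libraries, 283.2 for rpn-3, against 257.5 to 261.2, and 166.9 for rpn-13, against 144.1 to 150.2. Without that library 26 of the 33 subunit genes were lower in C. chinensis against DMSO, the lowest count of any library left out.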

How the results depend on the processing

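In C. chinensis against DMSO, 711 of 792 values of single subunit genes (33 genes under 24 alternatives) kept their direction and side of the threshold, 52 fell short of it and 17 reversed. The number of subunit genes lower moved from 29 to 19 without further scaling, with quantile normalization and with a filter at a mean FPKM of 5, with 2 core genes lower in each, and the core count was 6 with median-of-ratios scaling. Of all genes tested, 22.9% were lower without further scaling, 37.5% with quantile normalization and 34.6% with that filter. For these settings, here and between the extracts, the shares among genes with a mean FPKM of at least 100 are not given. The median of the subunit genes minus that of all genes was −0.02 with quantile normalization, −0.08 with the stricter filter and −0.31 without a filter, in place of −0.21. The values that reversed were 0.01, 0.02, 0.04 and 0.08 without further scaling, 0.01, 0.02, 0.05 and 0.06 with quantile normalization, and 0.01, 0.02, 0.03 and 0.07 with the stricter filter. In C. chinensis against E. ulmoides the 33 lower genes became 15 without further scaling and with quantile normalization (2 of the core in each) and 18 with the stricter filter (3 of the core), and the 2 genes past the fold limit became 0 under these, median-of-ratios scaling and the use of every library as reference. Of all genes tested, 18.5% were lower without further scaling, 31.6% with quantile normalization and 35.2% with the stricter filter. The median difference was then −0.01 with quantile normalization and −0.12 with the stricter filter, in place of −0.32. Reversed values were 0, 0.03, 0.07, 0.08 and 0.11 without further scaling, 0.02, 0.05, 0.06 and 0.07 with quantile normalization and 0.01, 0.02 and 0.04 with the stricter filter. In E. ulmoides against DMSO 8 subunit genes were higher with 2 groups only, in place of 0, where 1293 of all 13743 genes tested were higher. There, 62 values reversed, none past a threshold. They were −0.11, −0.08, −0.07, −0.06, −0.05, −0.04, −0.03, −0.02, −0.01 and 0 without further scaling, −0.09, −0.06, −0.05, −0.04, −0.03, −0.01 and 0 with quantile normalization, −0.05, −0.02, −0.01 and 0 with the stricter filter, 0 with median-of-ratios scaling, and −0.01 without a filter and with every library as reference. Among fits without a library they ranged from −0.04 to 0. Apart from the shift that a scaling puts on all genes, the cause of these moves was not tested.

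Leaving out each library in turn gave 26 to 32 subunit genes lower in C. chinensis against DMSO, 31 to 33 in C. chinensis against E. ulmoides and 0 in E. ulmoides against DMSO, and 0 to 2 past the fold limit between the extracts (0 without C. chinensis replicate 3 or 5). The core minus the regulatory particle kept within 0.12 to 0.15, 0.13 to 0.16 and −0.01 to 0.02. Libraries of the same replicate number did not deviate together (correlations −0.25 to 0.06 over 15 pairs), so the numbers were not taken as pairs. With a replicate block 27 subunit genes were lower in C. chinensis against DMSO, 33 in C. chinensis against E. ulmoides and 0 in E. ulmoides against DMSO. The column names also carry code numbers, which differ in part from the replicate numbers and whose meaning is not given. Libraries that share a code number did not deviate together either (correlations −0.15 to 0.04 over 11 pairs), and with a replicate block by code number 30, 33 and 0 subunit genes passed in the same comparisons, pas-2 and pbs-4 among the 30, with 3 past the fold limit between the extracts. Counting error was 0.515% to 2.15% of a subunit gene's level and the SD between libraries a median of 4.07 to 5.43 times as large by group. For rpn-6.2, the gene with the fewest fragments, it was 2.15% beside an SD of 2.95% in the C. chinensis group.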

Other observations

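Further steps of the ubiquitin pathway were lower in C. chinensis against DMSO at shares to be read beside 37.2% of all genes tested and 70.9% of those with a mean FPKM of at least 100. They were 12 of 20 genes of ubiquitin-conjugating (E2) enzymes and variants, with 2 higher (median −0.23), 7 of 8 cullin and RING partner genes, with 1 higher (median −0.37), 6 of 7 genes of CDC-48 and its cofactors (median −0.28) and 3 of 4 ubiquitin and E1 genes (median −0.18). Without further scaling 5, 6, 4 and 0 of them were lower, beside 22.9% of all genes tested. The share among genes with a mean FPKM of at least 100 is not given for this setting. The E2 variant gene uev-3 changed by −0.58 ± 0.08 (adjusted p = 1.3e-05, limma), the RING partner rbx-2 by −0.58 ± 0.07 (adjusted p = 2.3e-06) and cul-4 by −0.55 ± 0.08 (adjusted p = 1.4e-05), and these passed in all 24 alternatives. The higher genes were ubc-8 (0.43 ± 0.07), ubc-23 (0.47 ± 0.11) and cul-6 (0.44 ± 0.09), named after their values were seen. The last encodes a cullin that C. elegans induces on intracellular infection.

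In E. ulmoides against DMSO, 37 of 76 cytosolic ribosomal protein genes were higher (median 0.26), beside 16.1% of the genes with a mean FPKM of at least 100, but the count was 0 without further scaling, with quantile normalization, with no filter or the stricter one, with a replicate block by code number, and without DMSO replicate 2, DMSO replicate 3 or E. ulmoides replicate 1.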
